A study of Mus musculus with 8 samples.

Results

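The genes described here are 10 that act where leukocytes attach to and cross the vessel wall: the adhesion molecules Vcam1, Icam1, Icam2, Sele, Selp, Pecam1 and Cdh5, and the leukocyte integrin chains Itga4, Itgal and Itgb2. They were chosen by name, and every non-control probe carrying one of these names was taken, which gave 22 of the 41174 probes and 10 of the 27962 names on the array. Hepatic RNA was measured in male wild-type C57BL/6 mice (C57BL/6J in the study's methods) aged 14 to 17 weeks at the start of the experiment, of which 4 received standard chow (STD) and 4 a high-fat/high-cholesterol atherogenic (ATH) diet that also contains cholic acid, each for 4 weeks. All mice carried the same wild-type genotype and no other treatment, each mouse had its own array, and the arrays of 1 diet all lay on 1 slide, which means that slide and diet cannot be told apart in any value below. Levels are log2 signals relative to the 75th percentile of the same array, hereafter log2 levels, and they compare arrays for 1 probe, not one probe with another.

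Leukocytes leave the blood in steps. Selectins such as E-selectin (Sele) and P-selectin (Selp) on activated endothelium slow the passing cell, the integrins of the leukocyte then bind immunoglobulin-type counter-receptors on the vessel wall, and the cell passes between endothelial cells held together by molecules such as PECAM-1 (Pecam1) and VE-cadherin (Cdh5). ICAM-1 (Icam1) and ICAM-2 (Icam2) are bound by the integrin made of the Itgal and Itgb2 chains, and VCAM-1 (Vcam1) by the integrin of Itga4 with its partner Itgb1. In liver the low-flow sinusoids are known for depending little on selectins, and ICAM-1 and VCAM-1 are also made by cells other than endothelium, among them macrophages and stellate cells.

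The probes that carry the results are shown first, because several genes were read by probes that did not move together. The positions are those of the array design on the mm7 (NCBI35) mouse assembly, and which exon each probe lies in was not determined here. The 3 Vcam1 probes lie on the minus strand of chromosome 3, at chr3:115885211-115885270 (A_51_P210956), chr3:115891967-115892026 (A_52_P462332) and chr3:115900948-115901007 (A_52_P520495). The last is given whole and the other two by 30 bases each, with the polyadenylation signal AATAAA in capitals.
Vcam1 A_51_P210956, last 30 bases: cactgggttgactttcaggtactactttct
Vcam1 A_52_P462332, last 30 bases: acAATAAAccattctccataaagcaaacca
Vcam1 A_52_P520495: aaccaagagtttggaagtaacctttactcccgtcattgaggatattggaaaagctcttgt

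Both Icam1 probes lie on the plus strand of chromosome 9, at chr9:20905300-20905359 (A_51_P408506) and chr9:20904404-20904463 (A_52_P613241), and they are shown because both rose and agreed. AATAAA is again in capitals. The Pecam1 probe at chr11:106790116-106791969 (A_51_P400868, minus strand) is shown because it is the reference of the endothelial comparisons, and its 60 bases span 1854 bases of genome.
Icam1 A_51_P408506, last 30 bases: agaaacctttcctttgaatcAATAAAgttt
Icam1 A_52_P613241: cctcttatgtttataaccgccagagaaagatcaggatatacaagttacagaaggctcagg
Pecam1 A_51_P400868: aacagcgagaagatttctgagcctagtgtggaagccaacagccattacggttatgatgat

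Of the 6 Itga4 probes, the pair that was detected on all 8 arrays is shown by the first 30 bases, since only one of them rose. Both are on the plus strand of chromosome 2, at chr2:79174249-79174308 (A_52_P223495) and chr2:79136504-79136563 (A_52_P526816).
Itga4 A_52_P223495, first 30 bases: aacttcttcaagctgatatgggcgttgaga
Itga4 A_52_P526816, first 30 bases: aaggaagcccaactattcctaggagccctt

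RefSeq promoters on GRCm38.p6 matched 4 of the 10 genes by symbol: Icam1, Sele, Selp and Itga4. The 250 bases before the start of Icam1 (chr9:21015690-21015939, plus strand) and of Sele (chr1:164047984-164048233, plus strand) are shown because each holds 1 match to GGANATTCC, in capitals, a motif chosen after the sequences were looked at.
Icam1 promoter: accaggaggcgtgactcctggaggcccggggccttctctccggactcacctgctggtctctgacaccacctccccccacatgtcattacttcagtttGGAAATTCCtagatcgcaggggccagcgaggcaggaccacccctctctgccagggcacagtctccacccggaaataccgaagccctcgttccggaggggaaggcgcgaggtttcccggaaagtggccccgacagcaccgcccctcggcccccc
Sele promoter: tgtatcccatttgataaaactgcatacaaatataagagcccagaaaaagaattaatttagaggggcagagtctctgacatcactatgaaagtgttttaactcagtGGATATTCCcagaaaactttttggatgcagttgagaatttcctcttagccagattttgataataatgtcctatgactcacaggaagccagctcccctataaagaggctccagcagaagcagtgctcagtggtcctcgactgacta

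The matches begin 153 bases before the start of Icam1 and 145 before that of Sele. On either strand of the 300 bases that run to 50 past the start, the motif occurs in 306 of 32851 mouse promoters (0.931%). The NF-kappaB consensus, a related motif of 10 letters, was in none of the 4 promoters and in 8.46% of all promoters. A search for that motif misses sites of other spelling, so it does not show that these promoters lack a site. These are matches of letters and were not tied to the arrays.

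Vcam1, Icam1, Itga4, Itgal and Itgb2 rose on the ATH diet by 2.99- to 5.43-fold on their brightest probes, while no probe of Icam2, Selp, Pecam1 or Cdh5 passed the test and Sele was at the background of the array. In limma with Benjamini-Hochberg adjustment over all detected probes, 6 of the 19 member probes that could be tested were higher at an adjusted p of 5%, beside 3.06% of the 31056 detected probes, and 0 were lower, beside 4.94%. At the 1% used by the study 0 member probes passed in limma, beside 0.528% of all, 13 had an unadjusted p under 0.05, beside 28.4%, and the lowest adjusted p was 0.0159, for Icam1. The other 3 of the 22 probes, the only one of Sele and 1 each of Pecam1 and Itga4, were not well above background on enough arrays, and 15 of the 19 tested were detected on all 8. Since some probes were tested only because they were detected on the ATH arrays, these counts are a description of the 10 genes.

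Of the 19 tested probes 16 were higher and 3 lower, with a median log2 fold change of 1.43. Over all detected probes the median was -0.15, so more of them were lower than higher. Of the 19 probes 5 belong to Itga4 and 3 to Vcam1, and some were tested only through the ATH arrays. On 9 probes of 6 genes all 4 ATH arrays lay above all 4 STD arrays, beside 6.01% of detected probes, and on 0 probes did they all lie below, beside 13.8%. The 5% calls sat close to their threshold. When arrays with the same replicate number were paired, the 2 Icam1 probes alone were called higher, beside 1.54% of detected probes, and 0 lower, beside 2.71%. The count of 5 genes called higher became 2 without ATH replicate 1 (Icam1 and Itga4) or ATH replicate 3 (Icam1 and Cdh5), 1 (Icam1) without ATH replicate 4 or STD replicate 1, 2 or 4, 0 without STD replicate 3 and 5 without ATH replicate 2. The share of all probes called is given below only for the run without ATH replicate 2. The lower counts in the other runs are therefore not shown to be particular to these genes. The methods' unequal-variance test, as rerun here, called 0 of the 19 probes, beside 0.0193% of all probes higher and 0.0515% lower. At an unadjusted p under 0.05 it had 8 of the 19, beside 22.9% of all probes. This rerun called too few probes on the whole array to stand for the study's own list, from which enriched functional clusters were reported. The rerun was not compared with that list, so it does not show what the study found for these genes.

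The mouse of ATH replicate 2 had the lowest ATH level on 11 of the 19 tested probes, including all 6 that rose, and it was the lowest ATH array on 19.2% of all detected probes and on 68.3% of those called higher. Without it 10 member probes of the same 5 genes were called, beside 5.85% of probes, and 0 lower, beside 7.47%.

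**Figure D1:**
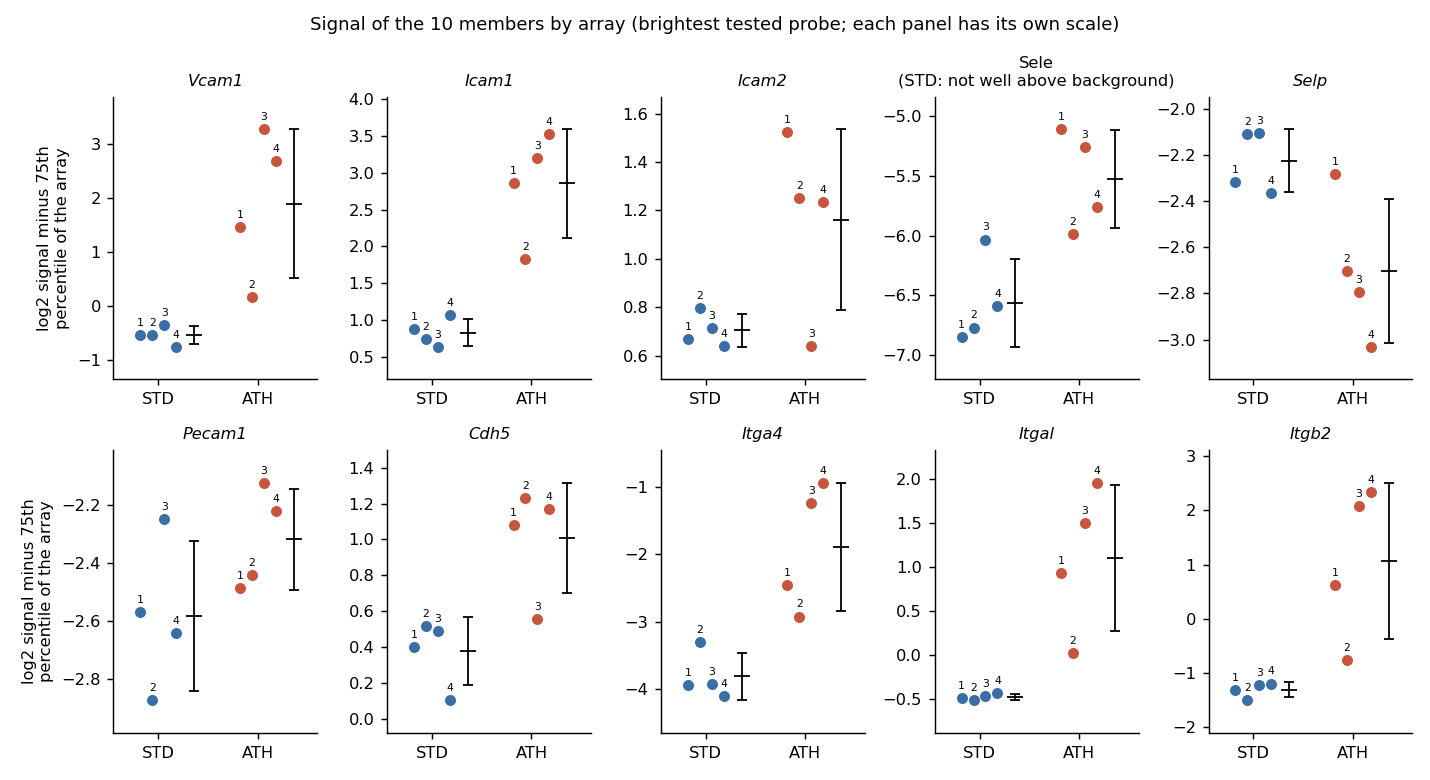
Log2 level of each gene on every array (dots, numbered by replicate; blue STD, red ATH), with the mean and SD of each diet as a bar beside the dots, for the brightest tested probe of each gene and the only Sele probe. ATH and STD dots do not overlap for Vcam1, Icam1, Sele (near background), Cdh5, Itga4, Itgal and Itgb2, and ATH replicate 2 is the lowest ATH dot in all of these but Cdh5; each panel has its own scale.

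The immunoglobulin-type counter-receptors Vcam1 and Icam1 rose, Icam1 on both of its probes and Vcam1 on 1 of 3. The bright Vcam1 probe A_51_P210956 had log2 levels of -0.53, -0.54, -0.35 and -0.75 on the STD arrays and 1.46, 0.17, 3.27 and 2.68 on the ATH arrays, replicates 1 to 4 in each. Every ATH mouse was above every STD mouse, the STD mice lay within a narrow band, and ATH replicates 3 and 4 were far above replicate 2. The rise in log2 was 2.44 (SE 0.58, n = 4 per diet; 5.43-fold), with a limma adjusted p of 0.0405, 0.0559 with the replicate block.

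The Vcam1 probe A_52_P520495 had a lower signal, -4.13, -4.69, -3.68 and -4.37 on STD and -3.25, -4.35, -1.71 and -1.86 on ATH, and here ATH replicate 2 lay inside the STD range. Its log2 fold change was 1.43 (95% confidence interval 0.18 to 2.67, limma adjusted p = 0.13), or 0.63 when the background was corrected by normexp. Without ATH replicate 2 it was 1.95 with a limma adjusted p of 0.0188.

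The remaining Vcam1 probe, A_52_P462332, was flat. It read -3.60, -4.43, -4.38 and -4.22 on STD and -4.29, -4.80, -5.05 and -3.66 on ATH, with the diets overlapping and a log2 fold change of -0.29 (interval -1.003 to 0.42). That value became 0.15 when no scaling was applied and 0.02 when arrays were scaled to their spike-ins. The array design assigns this probe to a cDNA clone and the other 2 to the RefSeq transcript, and it lies 6756 bases from the bright probe. The brightest probes of Icam1 and Itgal, which rose, are also assigned to cDNA clones, and whether the assignment bears on the Vcam1 difference was not tested. The difference between the Vcam1 probes A_51_P210956 and A_52_P462332 varied over the 8 arrays with an SD of 1.76 log2 units, so the Vcam1 result depends on which probe is read.

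Icam1 had the lowest adjusted p of the 10 genes and 2 probes that agreed. On A_51_P408506 its log2 levels were 0.87, 0.74, 0.63 and 1.06 on STD and 2.86, 1.83, 3.21 and 3.53 on ATH. All ATH mice were above all STD mice, again with replicate 2 nearest to them. The log2 fold change was 2.03 (SE 0.33, n = 4 per diet; 4.08-fold), with a limma adjusted p of 0.0159 that stayed under 5% in 7 of 8 runs with 1 array left out and was 0.0503 without STD replicate 3.

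The other Icam1 probe, A_52_P613241, read -1.91, -2.20, -2.03 and -1.62 on STD and -0.27, -1.19, 0.57 and 0.91 on ATH, without overlap. Its log2 fold change was 1.94 (limma adjusted p = 0.0309), within 0.085 of the first probe, and their difference had an SD over arrays of 0.196. Both stayed called with the replicate block, at limma adjusted p-values of 0.0367 and 0.0415.

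Icam2, a counter-receptor that resting endothelium carries constitutively, had 1 probe and a small difference that did not pass the test. It read 0.67, 0.80, 0.71 and 0.64 on STD and 1.52, 1.25, 0.64 and 1.23 on ATH, so 3 ATH mice were above the STD mice and ATH replicate 3 was at their lower edge. The log2 fold change was 0.46 (interval 0.04 to 0.88, limma adjusted p = 0.146). It passed 5% when unscaled, where it was 0.90 and 22.5% of all probes were called higher, and when scaled to the spike-ins (0.77, beside 8.38%).

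**Figure D2:**
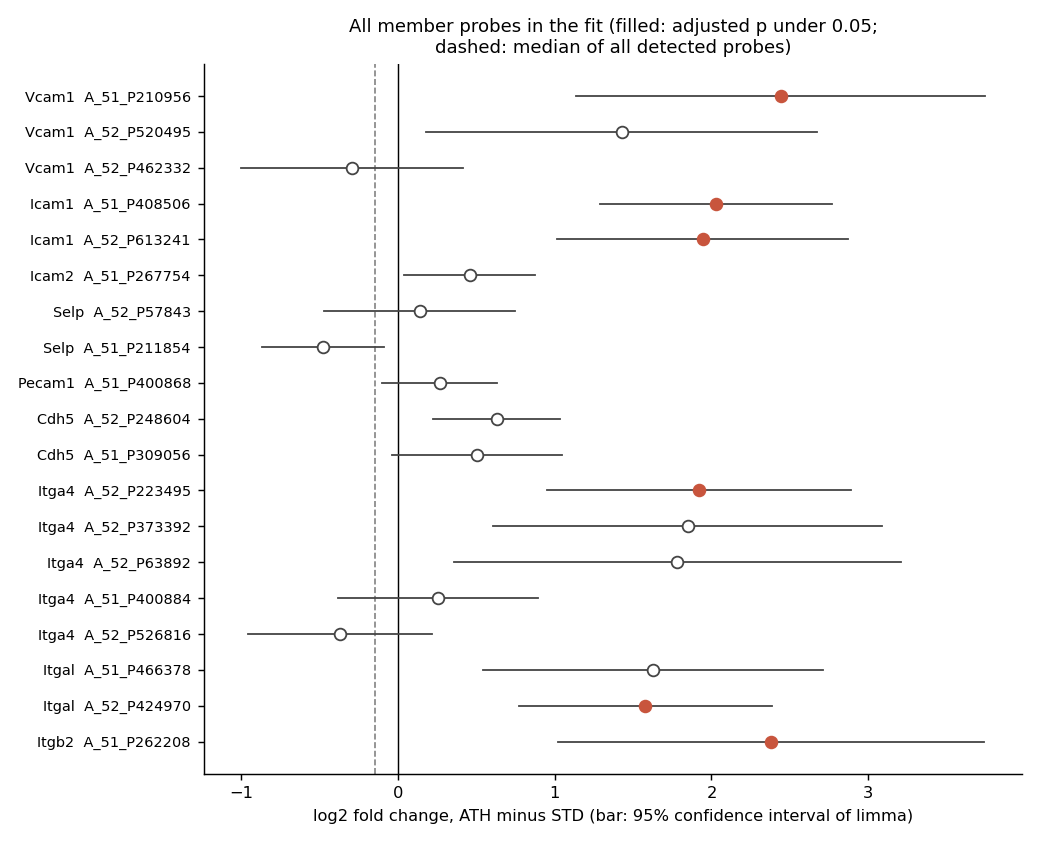
Log2 fold change (ATH minus STD) of the 19 tested probes with the 95% confidence interval of limma; filled points have an adjusted p under 0.05, and the dashed line is the median of all detected probes, -0.15. The 6 filled points lie between 1.58 and 2.44, and 3 open points are below 0.

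The selectins showed no rise that could be measured. E-selectin (Sele), which activated endothelium makes anew, was well above background on 0 of 4 STD arrays and on 2 of 4 ATH arrays. Its signals were -6.85, -6.77, -6.03 and -6.59 on STD and -5.11, -5.99, -5.26 and -5.76 on ATH, which do not overlap, but the ATH mean was below the lowest level that counts as measured on the STD arrays, so no fold is given. P-selectin (Selp), stored in the granules of platelets and endothelium, had 2 probes with opposite signs.

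On the Selp probe A_51_P211854 the log2 levels were -2.32, -2.11, -2.11 and -2.37 on STD and -2.28, -2.70, -2.79 and -3.03 on ATH. ATH replicates 2, 3 and 4 were below all STD mice and replicate 1 among them, with a log2 fold change of -0.48 (interval -0.87 to -0.09, limma adjusted p = 0.112), -0.03 without scaling. It was called lower with normexp (limma adjusted p = 0.0476), where 16.7% of all probes were called lower, and without ATH replicate 1 (0.0485). The dim probe A_52_P57843, well above background on 1 STD array, gave 0.14 (limma adjusted p = 0.764), and -0.22 with normexp.

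No probe of the endothelial junction molecules passed the test. PECAM-1 (Pecam1), found on all endothelium and on platelets and some leukocytes, read -2.57, -2.88, -2.25 and -2.64 on STD and -2.49, -2.44, -2.12 and -2.22 on ATH, where 2 ATH mice lay above the STD mice and 2 among them. The log2 fold change was 0.27 (interval -0.10 to 0.63, limma adjusted p = 0.31). Unscaled it was 0.71 and called higher (limma adjusted p = 0.0319), beside 22.5% of all probes. Scaled to the spike-ins it was 0.58 (limma adjusted p = 0.0828), and with normexp 0.058. A second probe under the name Pecam1, A_52_P349070, carries the description of another transcript and was below background on all arrays.

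VE-cadherin (Cdh5), the cadherin of endothelial junctions, was higher on all 4 ATH arrays on its bright probe A_52_P248604, at 1.08, 1.23, 0.56 and 1.17 against 0.40, 0.52, 0.49 and 0.10 on STD. ATH replicate 3 was only just above STD replicate 2. The log2 fold change of 0.63 (interval 0.23 to 1.03) missed 5% in limma (adjusted p = 0.0623). It passed with normexp (limma adjusted p = 0.028), with spike-in scaling (0.021) and unscaled (0.0104). In these settings 3.9%, 8.38% and 22.5% of all probes were called higher. It also passed without ATH replicate 3 (limma adjusted p = 0.0413). The second probe, A_51_P309056, overlapped between diets and gave 0.50 (limma adjusted p = 0.204; called when unscaled, 0.0366), a difference of 0.128 from the first.

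The integrin chains of leukocytes rose. Itgb2, the beta chain that pairs with Itgal and with the Itgam and Itgax chains, read -1.31, -1.50, -1.22 and -1.19 on STD and 0.62, -0.76, 2.09 and 2.34 on ATH. The STD mice were close together, all ATH mice lay above them, and ATH replicate 2 was far below the other three. Itgb2 rose by 2.38 in log2 (SE 0.60, n = 4 per diet; 5.20-fold), with a limma adjusted p of 0.0468, 0.0547 with the replicate block.

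Itgal, the alpha chain that with Itgb2 binds ICAM-1 and ICAM-2, had 2 probes in agreement. On A_52_P424970 the levels were -0.49, -0.51, -0.47 and -0.42 on STD and 0.93, 0.03, 1.50 and 1.96 on ATH, with no overlap. Itgal rose by 1.58 in log2 (SE 0.36; 2.99-fold), with a limma adjusted p of 0.0364, 0.0523 with the block. The other probe, A_51_P466378, ran from -2.25 to -1.91 on STD and from -1.87 to 0.67 on ATH, and its log2 fold change of 1.63 differed by 0.049 but did not pass (limma adjusted p = 0.0688).

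Itga4, the alpha chain that with Itgb1 binds VCAM-1, was read by 6 probes that did not move together. The brightest, A_52_P223495, gave -3.94, -3.29, -3.92 and -4.09 on STD and -2.46, -2.92, -1.23 and -0.95 on ATH, all ATH mice above all STD mice. On this probe Itga4 rose by 1.92 in log2 (SE 0.43; 3.78-fold, limma adjusted p = 0.0353, 0.0688 with the block), and 1.01 with normexp, where it was still called (0.0275).

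The other probe detected on all 8 arrays, A_52_P526816, which the array design assigns to a cDNA clone, was flat, at -0.37 (limma adjusted p = 0.373) and 0.08 without scaling. The remaining probes were dim on STD and tell little of the size of a change. A_52_P373392, also assigned to a cDNA clone and well above background on 1 STD and 4 ATH arrays, gave 1.85 (limma adjusted p = 0.0696) and 0.42 with normexp. A_52_P63892 was well above background on 0 STD and 3 ATH arrays, so that its ATH signal can only be put at least 1.62-fold higher than the STD limit of measurement (limma adjusted p = 0.107). A_51_P400884, assigned to the RefSeq transcript and well above background on 1 STD and 3 ATH arrays, gave 0.25 (-0.20 with normexp), and A_52_P545336 was not tested. Itgb1, the partner of Itga4 and a chain that many cell types make, gave 0.18 (limma adjusted p = 0.394).

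**Figure D3:**
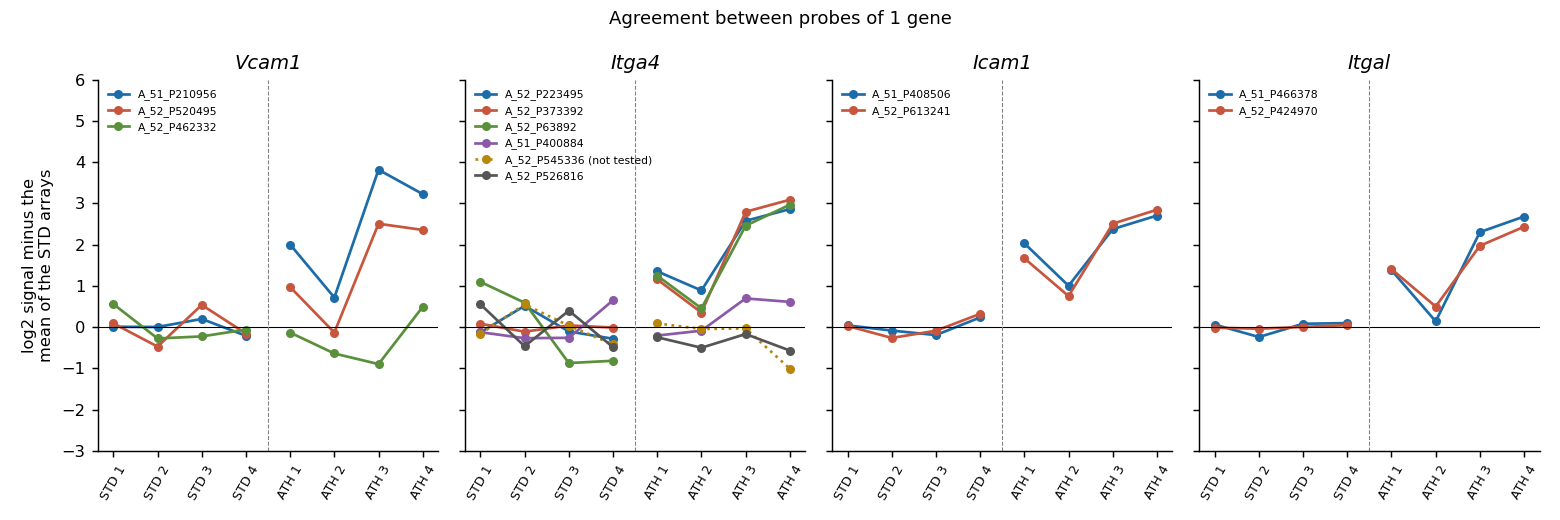
Log2 signal of every probe of Vcam1, Itga4, Icam1 and Itgal on the 8 arrays, centred on the mean of the STD arrays; 1 colour is 1 probe, and the lines only join the points of a probe. The 2 probes of Icam1 and of Itgal run together, whereas 1 Vcam1 probe and 3 Itga4 probes stay near the STD level; all Itga4 probes but A_52_P223495 and A_52_P526816 were at or near background on most STD arrays.

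Each gene was next set against a reference gene on the same array, a difference that does not depend on scaling. The 8 comparisons were tested by a two-sided exact permutation test with Benjamini-Hochberg adjustment over the 8, and with 4 arrays against 4 the smallest p is 0.0286. Pecam1 served as the endothelial reference and Ptprc (CD45), the phosphatase on all leukocytes, as the leukocyte reference.

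Vcam1 minus Pecam1 was 2.04 ± 0.207 (SD, n = 4) on STD and 4.22 ± 1.22 on ATH, a difference of 2.18 with no overlap (exact p = 0.0286, adjusted p = 0.114), which fell to 0.93 (exact test, adjusted p = 0.183) when all probes of a gene were averaged. Icam1 minus Pecam1 was 3.41 ± 0.368 and 5.18 ± 0.633, a difference of 1.76, also without overlap (exact p = 0.0286, adjusted p = 0.114). Both reached the smallest p and neither passed after adjustment. When so few of the comparisons reach the smallest p, the adjustment lets none of them pass 5%, however large their differences are. Had more of the comparisons reached it, they could have passed. Icam2 and Cdh5 against Pecam1 differed by 0.19 and 0.37 with overlapping diets (exact p = 0.543 and 0.314).

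Ptprc itself read -0.33, -0.38, -0.06 and -0.32 on STD and 1.50, 0.33, 2.52 and 2.83 on ATH, a log2 fold change of 2.07 (limma adjusted p = 0.0382, 0.052 with the block). Against it the integrin chains differed between the diets, on the brightest probes, by -0.15 for Itga4 (exact p = 0.571), -0.49 for Itgal (exact p = 0.0571, adjusted p = 0.152) and 0.31 for Itgb2 (exact p = 0.143). Averaged over the probes of each gene they were -0.52, -0.0035 and 0.77, and for Itga4 the value was -0.94 with normexp, so their size depends on the probes and the background correction. No value passed after adjustment. For Itgal the ATH values, -0.56, -0.31, -1.02 and -0.87, overlapped the STD values, -0.16, -0.14, -0.41 and -0.10, only through ATH replicate 2. Given as a description with no test, Vcam1 minus Ptprc ran from -0.43 to -0.17 on STD and from -0.16 to 0.76 on ATH, and Icam1 minus Ptprc from 0.70 to 1.38 and from 0.69 to 1.50.

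Itgal minus Itgb2 was 0.83 ± 0.107 on STD and 0.03 ± 0.632 on ATH, a difference of -0.80 (exact p = 0.0857, adjusted p = 0.171). ATH replicate 2, at 0.78, lay within the STD range of 0.75 to 0.99, and the other ATH mice were below it. Within pairs of the same replicate number both Itgal minus Itgb2 and Itgal minus Ptprc were lower on ATH in 4 of 4, for which the smallest exact p is 0.125. Without a threshold passed, these values are not shown to differ.

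**Figure D4:**
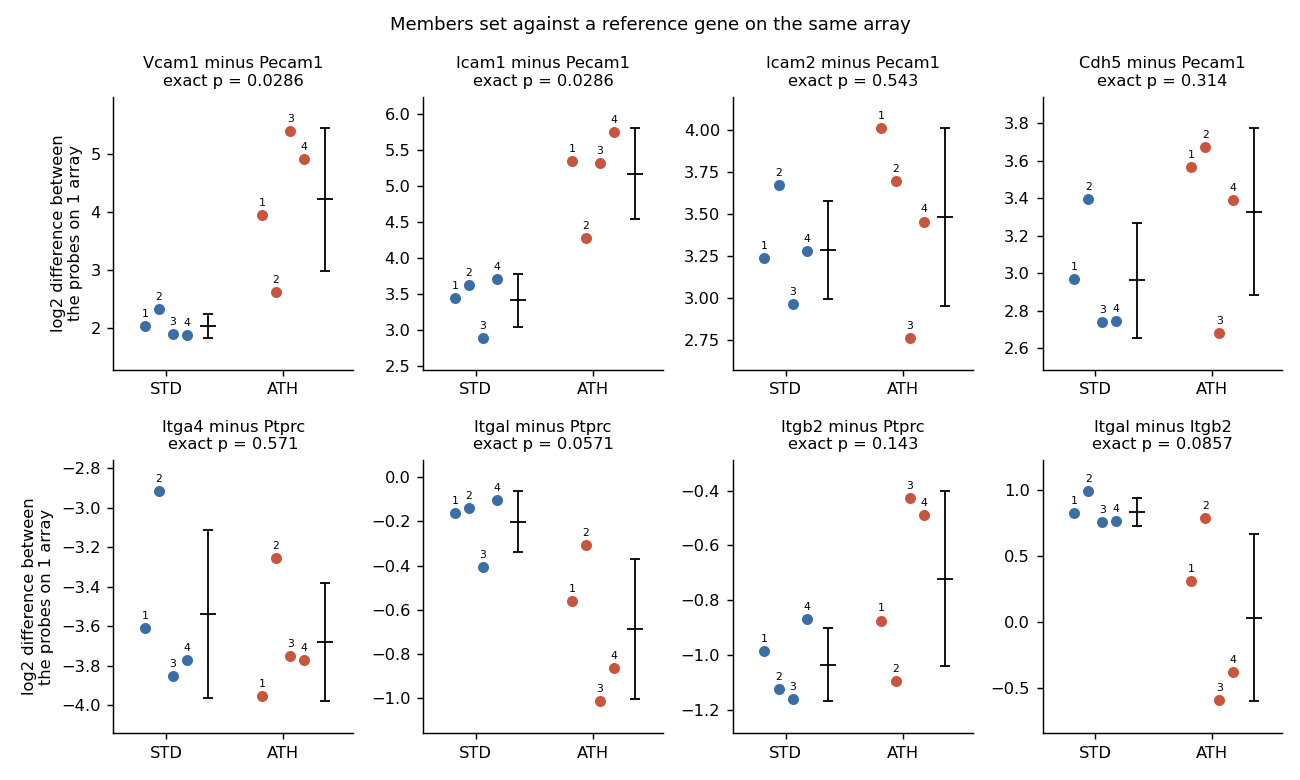
Log2 difference between the probe of a gene and that of its reference gene on the same array (dots, numbered by replicate; blue STD, red ATH; bars, mean and SD), with the unadjusted exact p of each. STD and ATH dots separate for Vcam1 and Icam1 against Pecam1 and overlap in the other 6 panels.

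Beside the integrins, the markers of leukocytes as a class were mostly called higher, and those of endothelium in general were not, except when unscaled. Of 10 genes found in all leukocytes, 9 rose (median log2 fold change 1.89), with the lowest adjusted p for Laptm5 (1.67), a lysosomal protein, Cd52 (2.50), a surface glycoprotein, and Lcp2 (1.63), an adaptor of receptor signalling. Their summed level relative to the 75th percentile ran from 13.8 to 14.8 on STD and from 18.5 to 85.4 on ATH, with ATH replicate 2 the lowest at 18.5. Of 10 macrophage and monocyte genes 7 rose (median 1.97), the lowest adjusted p being those of Mpeg1 (1.89), Ly86 (2.01) and Ccr2 (2.34), and their sum ran from 68.5 to 93.1 on STD and from 134 to 683 on ATH. With the replicate block 0 of the leukocyte and 4 of the macrophage genes were called, and without ATH replicate 2, 9 of each. In bulk liver, fewer or more cells of a type and less or more RNA per cell cannot be told apart, and the part these cells have in the rise of the integrins, Vcam1 and Icam1 was not tested.

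No gene of the T cell (0 of 9), B cell (0 of 4), neutrophil (0 of 7) or platelet (0 of 8) lists passed 5% in limma, with medians of 1.06, 0.25, 0.67 and 0.57. At an unadjusted p under 0.05 in limma, 5 T cell, 0 B cell, 2 neutrophil and 4 platelet genes were higher. Lower were 1 T cell, 0 B cell, 1 neutrophil and 0 platelet genes, beside 28.4% of all probes in either direction. With the replicate block 2 neutrophil genes and 1 platelet gene were called. The remaining B cell markers Blk and Pax5 and the neutrophil markers Ly6g and Elane were not in the test. Without ATH replicate 2, 5 of the T cell, 1 of the B cell, 2 of the neutrophil and 1 of the platelet genes passed. T cell sums were 1.60 to 2.42 on STD and 1.61 to 5.31 on ATH, and neutrophil sums 1.62 to 3.37 and 3.22 to 14.5.

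Of 12 endothelial genes 0 passed in either direction in limma, also with the block, with 1 lower and 0 higher at an unadjusted p under 0.05 and a median of -0.02, and their sum was 32.7 to 39.4 on STD and 29.4 to 46.5 on ATH. Of 8 genes of the liver sinusoidal endothelium 2 rose, the hyaluronan receptor Lyve1 (1.21) and the Fc receptor Fcgr2b (0.68), both also made by some macrophages, with a median of 0.24. Unscaled, 4 of the 12 and 5 of the 8 were called higher, beside the 22.5% of all probes given above. As a check of the labelled tissue, all 10 hepatocyte markers were detected, with a summed level of 4718 to 5117 on STD and 3320 to 4487 on ATH. Of them 2 fell, Tat (-1.05) and Tdo2 (-0.70), enzymes of tyrosine and tryptophan breakdown. With the block Lyve1 and Tat were still called and Fcgr2b and Tdo2 were not, and without ATH replicate 2, 6 hepatocyte genes were called lower.

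The other genes of the adhesion cascade were described by lists written for this purpose. Of 10 selectin ligands and the enzymes that make them 4 rose, with a median of 1.57. They included Cd44 (2.04, limma adjusted p = 0.0272), Selplg (1.89), the P-selectin ligand of leukocytes, and Fut7 (1.42), a fucosyltransferase that completes selectin ligands. With the replicate block 1 of the 10 was called, and without ATH replicate 2, 7 were.

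Of 13 other integrin chains 2 rose, with a median of 0.35. Itgax, a partner of Itgb2 on dendritic cells and macrophages, rose by 3.91 log2 units (SE 0.80, limma adjusted p = 0.0288), and Itga6, the alpha chain of a laminin receptor, by 0.81. Both held with the block. Itgam, another partner of Itgb2, was 0.74 (limma adjusted p = 0.49), and Itgad and Itga2 were not in the test.

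Of 12 genes that act on integrin activation in leukocytes, some of which restrain it, 4 rose and the median was 0.21. Those with the lowest adjusted p were Apbb1ip (0.93), which links Rap1 to talin, Cytip (1.71), which binds cytohesins and is known to lower integrin adhesion, and Rap1b (0.48), the small GTPase. Kindlin-3 (Fermt3) read 1.67 (limma adjusted p = 0.109) and talin (Tln1) -0.08. With the block Apbb1ip alone was called.

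Of 16 other adhesion molecules of the endothelium 1 rose, Mcam (0.65, limma adjusted p = 0.0236), a junction molecule also of pericytes, and 1 fell, Glycam1 (-0.85, limma adjusted p = 0.0222), a mucin of lymph node vessels. The median was 0.14, and with the replicate block neither was called. Without scaling 8 of the 16 were called higher and 0 lower.

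**Figure D5:**
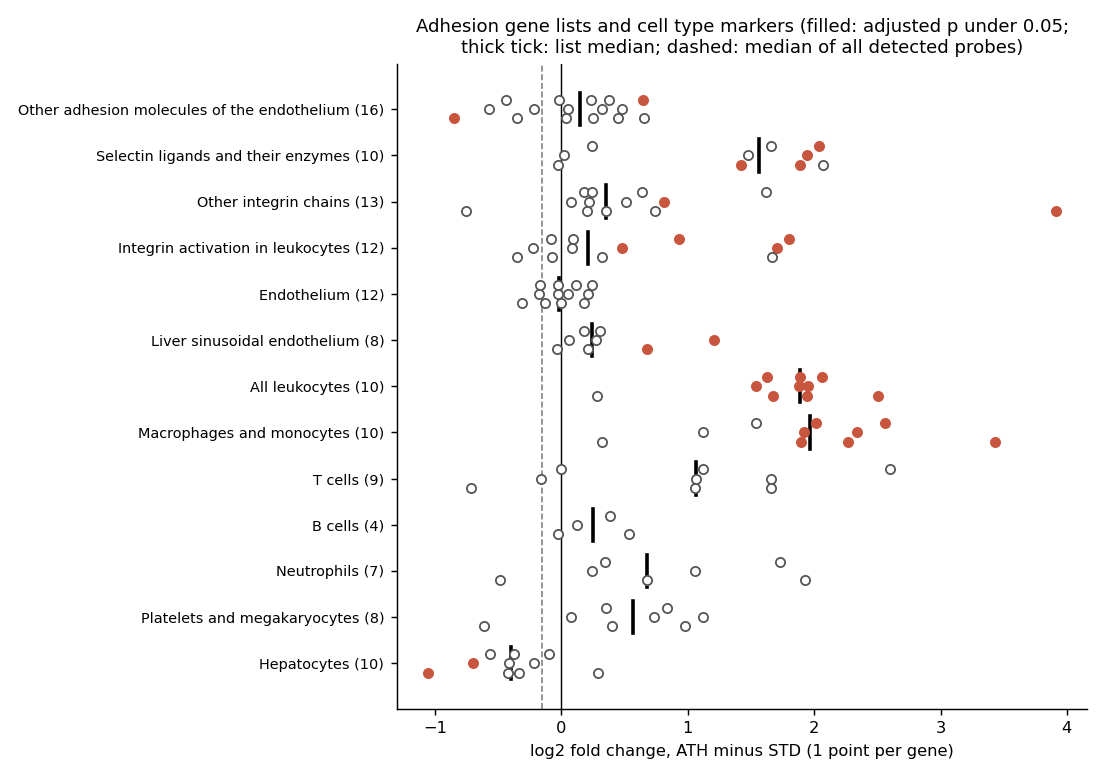
Log2 fold change of each gene (1 point per gene, its brightest tested probe) in the adhesion lists and the cell type marker lists, with the number tested in brackets; filled points have a limma adjusted p under 0.05 and the thick tick is the list median. The leukocyte and macrophage medians are 1.89 and 1.97 and the endothelial median is -0.02.

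Over 14170 genes detected on all 8 arrays, the genes whose centred profile lay nearest to that of each member were found by root mean square distance, as a description of these arrays. Profiles were centred but not scaled, so near genes share the size of the diet difference by construction. Nearest to Vcam1 were Adam8, Samsn1 and Glipr1 at 0.094 to 0.189 log2 units, where the median gene was at 1.59. Nearest to Icam1 were Gngt2, Amz1 and Ly86, to Itgal Tmsb10, Tbxas1 and Arhgdib, and to Itgb2 Snx20, Cd52 and Ms4a6b. Arhgdib and Cd52 are among the leukocyte markers above and Ly86 among those of macrophages. The genes nearest to Itga4 were Gcnt1, Parp8 and Trps1, at 0.189 to 0.213.

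The other 4 genes changed less, and so did the genes near them. Icam2 was nearest to Sesn3, Mtbp and Dnase1l3, the last a sinusoidal endothelial marker above. Pecam1 was nearest to Prag1, Adgra2 and Cep290, Cdh5 to Gatm, Ets1 and Mmp25, and Selp to genes that include Ccr3 and Chrnb2. None of the genes named here passed 5% in limma, which follows from the measure, and for these 4 genes the median gene lay only 0.338 to 0.497 away.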

How the data were processed

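Liver RNA of 8 mice was measured on Agilent Whole Mouse Genome arrays, 1 colour and 1 array per mouse. The authors extracted spot intensity values with Feature Extraction version 9.5, which subtracts the background and detrends the signal. They also deposited a table of log2 values for 31642 entries, which served as an alternative. Its values equal the log2 processed intensity plus constants per array and per probe, within 0.001. This held for 100% of its non-control probes that were detected here and had no missing value. It has 0 columns of other samples.

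Groups came from the labelled diet. Spots with outlier flags were left out, spots of a probe averaged in log2, and the 75th percentile of the array over non-control probes subtracted. A probe was tested if detected (well above background, positive and significant, no outlier flag) on at least 3 of 4 arrays of either diet: 31056 of 41174. Precision is limited by the 8 arrays. Spots well above background made up 72.3% to 77.3% of STD and 72.9% to 77.8% of ATH arrays, and arrays of a diet correlated at 0.971 to 0.991. The test of diet was limma's (3.58.1, run in R 4.3.3), two-sided, at an adjusted p of 5%. No member probe was saturated. In simulated data with 31042 probes, 200 of them changed, limma recovered 49% for a log2 change of 1 and 87% for 2. Of its 140 calls 4 were false. The replicate block recovered 1% and 69%, and the methods' test 15% and 54%. The simulation gave each probe the same SD in both diets and no effect of slide position, so it does not rank the tests on these arrays. On the called Vcam1 probe A_51_P210956 the SD was 0.167 on STD and 1.38 on ATH. Replicate numbers paired the arrays, since same-numbered arrays left their diet means together (r = 0.100, 0.229, 0.182 and 0.176) and the number marks the position on the slide. The limit of measurement of an array is the lowest signal among probes well above background, or the dim probe's own if higher.

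Exact tests ran in Python 3.11.15 (scipy 1.17.1, pandas 2.3.3, numpy 2.4.6) and plots in matplotlib 3.10.9. Alternatives were other scalings, background, filters, the methods' unequal-variance test, probe means, the block, the deposited values and leaving out each array. Named are all members, Pecam1, Ptprc and Itgb1, up to 3 genes per list and direction with the lowest adjusted p among those called, and 3 nearest profiles per member; Itgam, Fermt3 and Tln1 were named after their values were seen. Genes withheld from this text are not reported here. Members and lists were chosen with earlier results of these data known. That replicates are separate mice comes from the design text.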

Additional observations from a re-analysis of the deposited data

Results flagged for a closer look

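Among 38 sets of 4 arrays (19 tested probes in each diet) 2 held an array far from the other 3, where chance gives about 1 in 20. On the Itga4 probe A_51_P400884 STD replicate 4 was high, at -4.99, with the nearest STD array at -5.76 and the lowest at -5.91. On the Itgal probe A_51_P466378 STD replicate 2 was low, at -2.25, with the nearest STD array at -1.95. Neither probe was called.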

How the results depend on the processing

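The 5 genes called higher became 3 with the mean over the probes of a gene, 1 (Icam1) with no filter on dim probes, 8 without scaling, 1 with the replicate block, 0 with the methods' test, 0 at an adjusted p of 1% and 0 to 5 with 1 array left out; the lowest, 0, was without STD replicate 3. The 0 genes called lower became 1 (Selp) with normexp and 0 to 1 with 1 array left out. For the runs with 1 array left out, the share of all probes called is given only for that without ATH replicate 2. Spike-in scaling called 7 genes, normexp 6, quantile normalization 4 and median scaling, the deposited values and probes detected on all arrays 5, all higher. The median log2 fold change of all probes was -0.15, against 0.30 unscaled and 0.16 scaled to spike-ins, and the calls over all probes were 949 higher and 1534 lower, 6990 and 374 unscaled, 2602 and 408 scaled to spike-ins, 1210 and 5184 with normexp, 479 and 843 with the block, 387 and 699 without the filter, and 6 and 16 with the methods' test.

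The difference of Itga4 against Ptprc turned from -0.15 to 0.061 without STD replicate 2 (range -0.288 to 0.061 with 1 array left out). Single probes that turned sign were Vcam1 A_52_P462332 (0.152 unscaled, 0.0173 scaled to spike-ins), Selp A_52_P57843 (-0.22 with normexp), Itga4 A_51_P400884 (-0.20 with normexp) and Itga4 A_52_P526816 (0.0758 unscaled). For single probes, 278 of the values recomputed under an alternative kept their direction and side of the threshold, 18 passed it anew, 50 no longer passed and 5 turned. The causes were not tested. With the pairing, the smallest exact p is 0.125 and with 3 arrays against 4 it is 0.0571, so those runs of the exact tests could not pass. The block changed no other call on member probes than those given. Dim probes limit what can be read: Sele, 1 Selp probe and several Itga4 probes were near background on STD arrays.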
